A study of Mus musculus with 7 samples.

Results

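A set of 47 genes of the endoplasmic reticulum (ER) secretory pathway and of the unfolded protein response (UPR) was chosen by symbol, and 46 of them had a probe set with 1 gene symbol, out of 22180 genes measured. Pdia4 was not analysed here. Where several probe sets shared a symbol, as for 4 of these genes, the brightest was used. The tissue was blastema, the cell mass that forms on an amputated digit tip, taken 2 weeks after amputation (n = 3), and uninjured digit (n = 4), both from C57Bl/6 mice and described in the labels as biological replicates. No transgene, drug or sex is given for either group. RNA (400 ng per sample) was read on 1-colour arrays as RMA levels on a log2 scale.

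Proteins bound for the cell surface or the matrix enter the ER through the Sec61 translocon, lose their signal peptide, fold with the help of lumenal chaperones and disulfide isomerases, and leave in vesicles coated by COPII. COPI vesicles and KDEL receptors bring escaped ER residents back. When unfolded protein builds up, the sensors IRE1, PERK and ATF6 switch on XBP1, ATF4 and other factors that raise chaperone and degradation genes. The OASIS proteins, encoded by Creb3l1 and Creb3l2, are ER-anchored transcription factors cut in the same way as ATF6, and in mice they are known for their role in osteoblasts and chondrocytes, which secrete much collagen.

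Array medians were 5.53 to 5.58 after RMA, which makes the arrays alike in their distribution, so a difference in total RNA between groups would not show. Arrays give no read depth, and their number limits the precision. The 95th percentile of mean levels over 1088 olfactory receptor genes, 5.51, serves below as a proxy for background. The axis of largest variance (57.4%) parted the groups, and the next (14.3%) set blastema array 1 (15.78) and uninjured array 1 (24.77) apart from the other arrays (-13.59 to -3.18). The epidermal keratin genes Krt14 (11.62 to 11.82 in blastema, 11.53 to 11.92 in uninjured digit) and Krt1 (12.77 to 12.95 in blastema, 12.90 to 13.15 in uninjured digit) were high on every array of both tissues. Other epidermal keratin genes fell, Krt2 by 2.69 and Krt15 by 2.30 on the log2 scale (limma adjusted p = 0.0206 and 0.0265), calls kept in 3 and 1 of the 7 omissions of 1 array. In such bulk tissue, fewer cells of a type and less RNA per cell cannot be told apart.

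Of the 46 measured genes, 9 rose in the blastema and 2 fell, and 35 did not pass the test. The test was limma, with Benjamini-Hochberg adjustment over all 22180 genes and a threshold of 0.05 on the adjusted p. The rises were those of Creb3l1, Kdelr3, Sec24d, Creb3l2, Sec31a, Kdelr2, Ssr3, Sec61a1 and Kdelr1, and the falls those of Sec62 and Ssr4. Over all genes 4.98% rose and 4.66% fell, so the 9 rises (19.6% of the 46) lie above the background share and the 2 falls (4.35%) near it. All 3 blastema arrays lay above all 4 uninjured arrays in 22 of the 46 genes, against 10.4% of all genes, and below them in 4, against 10.6% of all genes. The median log2 fold change, blastema minus uninjured digit, was 0.23 over the 46 genes and -0.01 over all genes, and 36 of the 46 values were above 0 (78.3%, against 48.6% of all genes).

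**Figure D1:**
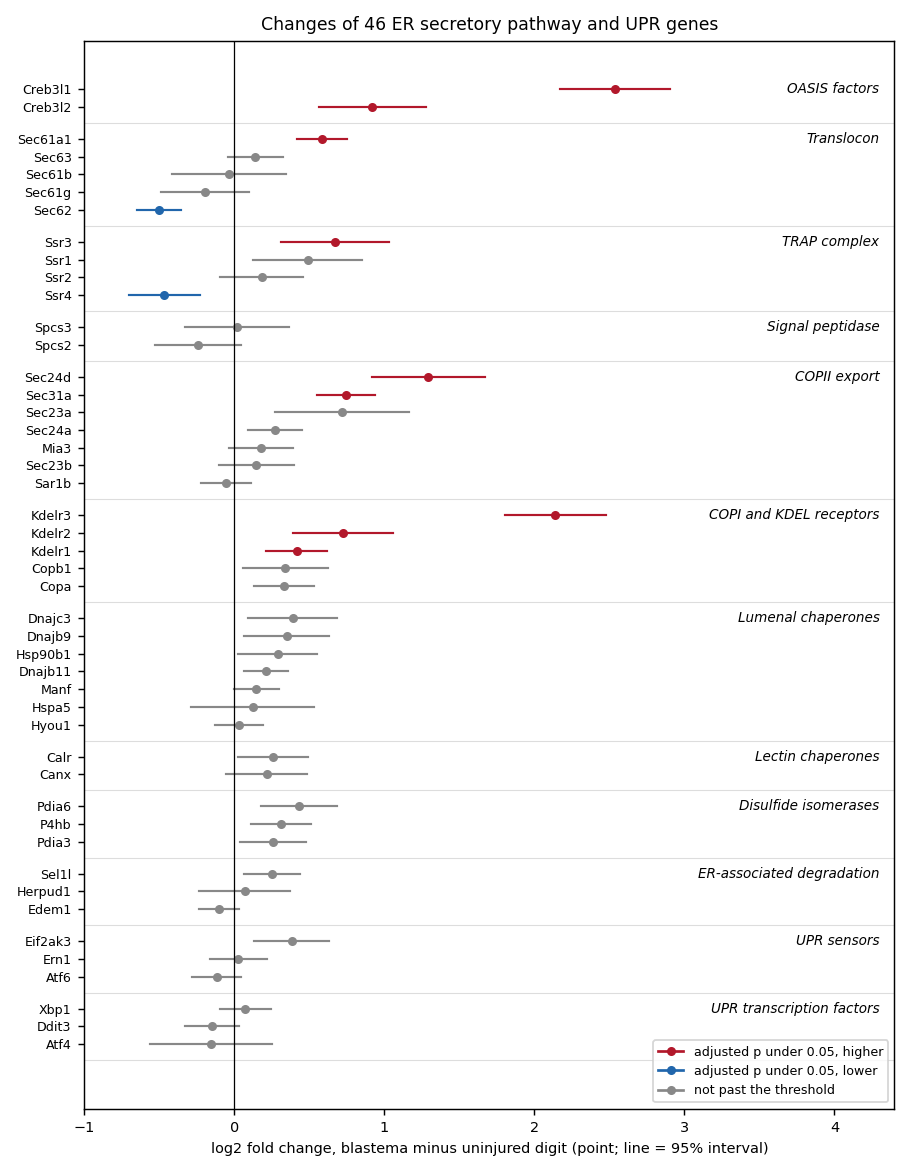
Log2 fold change of each of the 46 genes (x axis; point with its 95% interval from limma), grouped by role down the page. Red points rose and blue points fell at an adjusted p of 0.05, and grey points did not pass. Creb3l1 (2.54) and Kdelr3 (2.14) lie farthest to the right, and Sec62 (-0.50) and Ssr4 (-0.47) farthest to the left.

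The count moved with the arrays used, with scaling and with other settings. Blastema array 1 was the lowest of the 3 blastema arrays in 35 of the 46 genes (76.1%, against 39.9% of all genes). Without it 21 genes rose and 1 fell, beside 1286 rises and 1009 falls over all genes. Without both arrays numbered 1, 19 rose and 1 fell, beside 1164 and 1100 over all genes. Array weights gave 18 rises, beside 1570 over all genes. Each of 2 filters on level gave 15, beside 1304 of 15526 and 1404 of 13377 genes kept. As reported, 1105 of all 22180 genes rose, so the background count rose under these settings too. Omitting blastema array 2 left 5 rises and 1 fall, and omitting any other single array left 6 or 7 rises and 1 or 2 falls. The 12 genes that passed when blastema array 1 was omitted, and not with it, were Ssr1, Ssr2, Sec23a, Sec24a, Copa, Copb1, Dnajb11, Pdia3, Pdia6, P4hb, Sel1l and Eif2ak3, with adjusted p of 0.0123 to 0.0494. When each array was scaled to the mean of 8 reference genes, the median over all genes moved to -0.40, and 5 of the 46 genes rose and 11 fell, beside 511 rises and 12473 falls over all genes (3.94% of the calls upward, in place of 51.66%). The reference genes themselves averaged 0.40 higher in blastema, B2m by 1.34 and Gusb by 0.89. Scaling to their median, chosen after the data were seen, moved the median over all genes to -0.23 and gave 4 rises and 2 falls among the 46 genes.

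**Figure D2:**
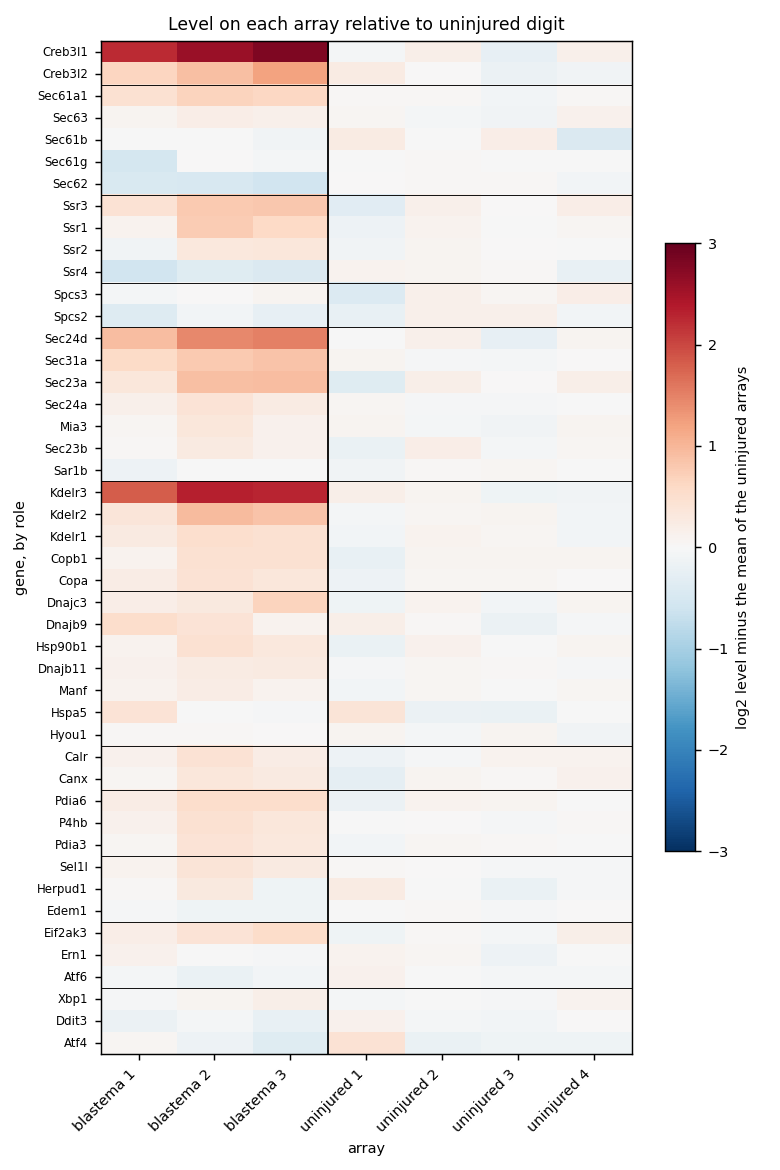
Log2 level of each gene (down the page, by role) on each array (across, blastema left of uninjured digit) minus the mean of the 4 uninjured arrays, in colour from blue (lower) to red (higher). The strong red rows are Creb3l1, Kdelr3 and Sec24d, and in most rows blastema array 1 is paler than arrays 2 and 3.

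Both OASIS factor genes rose, and their median change of 1.73 was the highest among the 12 role groups of the set. Creb3l1 lay at 8.25, 8.61 and 8.82 on the blastema arrays, against 5.96, 6.19, 5.78 and 6.16 on the uninjured arrays. The groups were more than 2 log2 units apart at their nearest arrays, and the uninjured values were close to the background proxy of 5.51. Its log2 fold change of 2.54 ± 0.16 (SE), or 5.82-fold, ranked 35 among 22180 genes (limma adjusted p = 0.00126). Creb3l2 lay at 7.57, 7.83 and 8.13 on the blastema arrays, against 7.18, 6.95, 6.75 and 6.82 on the uninjured arrays, with no overlap. It rose by 0.92 ± 0.15 (limma adjusted p = 0.0122), and did not pass without blastema array 2 (adjusted p = 0.0563). The log2 ratio of Creb3l1 to Creb3l2 was 0.68 to 0.78 on the blastema arrays and -1.22 to -0.65 on the uninjured arrays, so the genes changed by unequal amounts (difference 1.62). An exact two-sided permutation test over the 7 arrays gave p = 0.0571, the smallest that 3 against 4 arrays allow. Both genes also rose under both reference gene scalings (2.14 and 2.32 for Creb3l1, 0.53 and 0.70 for Creb3l2, on the log2 scale).

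Of the genes for retrieval from the Golgi, the 3 KDEL receptor genes rose by graded amounts. Their proteins bind ER residents that carry the KDEL tail. Kdelr3 lay at 7.86, 8.39 and 8.33 on the blastema arrays, against 6.23, 6.13, 5.92 and 5.95 on the uninjured arrays. It rose by 2.14 ± 0.14, or 4.41-fold, and ranked 60 among all genes (limma adjusted p = 0.00126). Its uninjured values, like those of Creb3l1, were close to the background proxy of 5.51. Kdelr2 lay at 9.50, 10.08 and 10.005 on the blastema arrays, against 9.08, 9.20, 9.23 and 9.05 on the uninjured arrays, with blastema array 1 nearest to the uninjured digits. Kdelr2 rose by 0.72 ± 0.14 (limma adjusted p = 0.0226). Kdelr1 lay at 7.23, 7.47 and 7.43 on the blastema arrays, against 6.88, 7.07, 7.02 and 6.87 on the uninjured arrays, and rose by 0.42 ± 0.09 (limma adjusted p = 0.0273). All 3 receptors kept their groups apart, but the calls of Kdelr2 and Kdelr1 were less secure than that of Kdelr3. Among the 7 omissions of 1 array, Kdelr2 passed in that of blastema array 1 alone (adjusted p = 0.055 to 0.0986 in the others), and Kdelr1 in those of blastema array 1 and uninjured array 2 (0.0571 to 0.107 in the others). Under reference gene scaling Kdelr3 rose (1.75), while Kdelr2 (0.33, adjusted p = 0.0584) and Kdelr1 (0.02, adjusted p = 0.88) did not pass. The log2 ratio of Kdelr3 to Kdelr1 was 0.63 to 0.91 on the blastema arrays and -1.100 to -0.65 on the uninjured arrays, and that of Kdelr3 to Kdelr2 was -1.69 to -1.63 on the blastema arrays and -3.31 to -2.85 on the uninjured arrays (exact permutation p = 0.0571 for each, the smallest possible). Both pairs were chosen after the data were seen, and neither could have passed 0.05. The COPI coat genes Copa (0.33 ± 0.08, adjusted p = 0.0522) and Copb1 (0.34 ± 0.12, adjusted p = 0.135) did not pass, although their groups did not overlap.

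Of the 7 genes for export from the ER by COPII, 2 rose and 0 fell, where 4.98% of all genes rose and 4.66% fell. Sec24d, a cargo-binding subunit of the coat, lay at 8.20, 8.71 and 8.79 on the blastema arrays, against 7.27, 7.43, 7.03 and 7.36 on the uninjured arrays. It rose by 1.29 ± 0.16, or 2.45-fold (limma adjusted p = 0.00479). Sec31a, of the outer coat, lay at 10.38, 10.59 and 10.67 on the blastema arrays, against 9.89, 9.78, 9.75 and 9.81 on the uninjured arrays, and rose by 0.74 ± 0.08 (limma adjusted p = 0.00363). Neither gene overlapped between groups, and both passed in all 7 omissions of 1 array. Sec31a did not pass when arrays were scaled to the median of the reference genes (0.52, adjusted p = 0.0714). Sec23a, of the inner coat and in mice a target of the OASIS factor Creb3l2, lay at 8.44, 9.01 and 9.03 on the blastema arrays, against 7.74, 8.29, 8.13 and 8.29 on the uninjured arrays, and just missed the threshold (0.72 ± 0.19, adjusted p = 0.0594). Its paralog Sec23b differed by 0.15 (95% interval -0.10 to 0.39), and Sec24a by 0.27 (0.09 to 0.45), neither past the threshold. The log2 ratio of Sec24d to Sec24a was -0.01 to 0.47 on the blastema arrays and -1.01 to -0.61 on the uninjured arrays, and that of Sec23a to Sec23b was 0.91 to 1.41 on the blastema arrays and 0.46 to 0.74 on the uninjured arrays (exact permutation p = 0.0571 for each). These 5 pairs of paralogs were chosen after the data were seen, and Benjamini-Hochberg adjustment over them left each p at 0.0571 by the exact permutation test. That is the smallest p possible, so no pair could have passed 0.05. Mia3, whose protein loads bulky collagens at exit sites, differed by 0.18 (-0.03 to 0.39), and Sar1b, the GTPase that starts the coat, by -0.05 (-0.22 to 0.11).

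**Figure D3:**
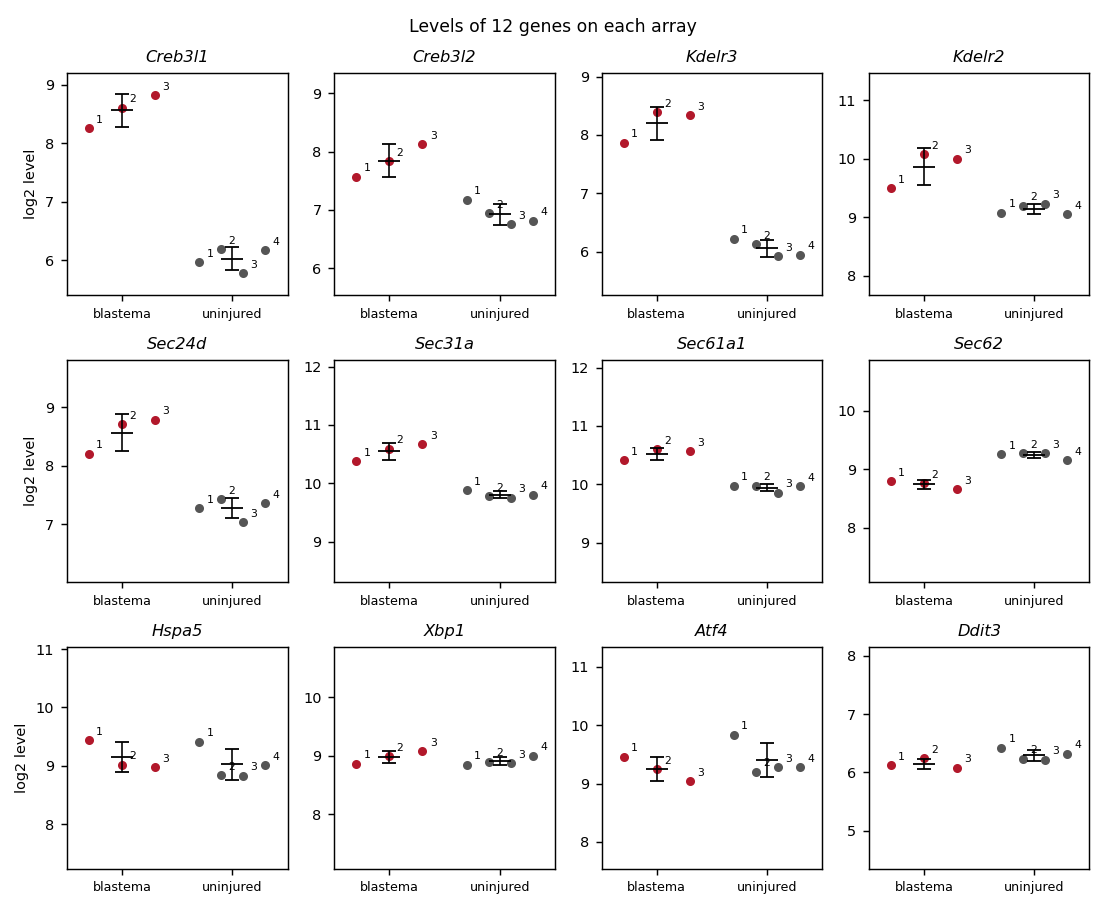
Log2 levels of 12 genes on each array (points, numbered by replicate), with blastema left of uninjured digit and the mean ± SD as a bar. Every panel spans the same range of log2 units. The groups are widest apart for Creb3l1 (8.25 to 8.82 and 5.78 to 6.19) and overlap for Hspa5, Xbp1, Atf4 and Ddit3.

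Promoter windows of RefSeq (GRCm38.p6, 250 bases before to 50 after each start) were searched on both strands for motifs of ER stress factors. Of the 46 genes 38 had a window, and Sec61a1, Ssr2, Spcs3, Kdelr2, Hyou1, Manf, Atf6 and Creb3l1 had none. So only 6 of the 9 genes that rose were searched, and Creb3l1, with the largest rise, was not. The UPRE was TGACGTGG. The ERSE was CCAAT, any 9 bases and CCACG, and the ERSE-II was ATTGG, any 1 base and CCACG. On its other strand the UPRE reads as CCACG and 3 further bases, so all of them share the letters CCACG. The UPRE was found for 4 of the 38 genes (10.5%, against 0.714% of 27025 genes with a window), and all 4 serve vesicle coats or retrieval. They are shown because 2 of them, Kdelr3 and Sec24d, had the largest rises among the 38, with the letters of the motif in capitals in 60 bases around it on the gene's strand. They lie at chr15:79516351-79516410 (plus strand) for Kdelr3, chr3:123267443-123267502 (plus) for Sec24d, chr12:59011979-59012038 (minus) for Sec23a and chr7:114254676-114254735 (minus) for Copb1.
Kdelr3: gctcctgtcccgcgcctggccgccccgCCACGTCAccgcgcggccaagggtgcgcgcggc
Sec24d: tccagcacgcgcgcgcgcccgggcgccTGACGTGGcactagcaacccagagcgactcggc
Sec23a: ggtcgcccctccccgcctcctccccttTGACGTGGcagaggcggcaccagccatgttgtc
Copb1: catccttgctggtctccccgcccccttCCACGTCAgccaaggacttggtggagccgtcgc

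Genes of entry into the ER went both ways. Sec61a1, the channel subunit of the translocon, lay at 10.41, 10.60 and 10.57 on the blastema arrays, against 9.98, 9.97, 9.85 and 9.97 on the uninjured arrays. It rose by 0.58 ± 0.07 (limma adjusted p = 0.00452), and did not pass under either reference gene scaling (0.19, adjusted p = 0.194, and 0.36, adjusted p = 0.205). Sec62, an accessory subunit for late insertion that also serves the turnover of ER by autophagy, lay at 8.79, 8.76 and 8.66 on the blastema arrays, against 9.26, 9.28, 9.27 and 9.16 on the uninjured arrays. Sec62 fell by 0.50 on the log2 scale (SE 0.06, limma adjusted p = 0.00512), in all 7 omissions and under every scaling tried. Both reference gene scalings move every gene down, and 12473 and 1846 of all genes passed as lower under them. Sec63, the partner of Sec62, differed by 0.14 (adjusted p = 0.32) and Sec61g by -0.20 (adjusted p = 0.388). Sec61b, with group means of 4.64 in blastema and 4.68 in uninjured digit, was under the background proxy.

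The TRAP complex, which sits at the translocon and helps some chains to enter, split in the same way. Ssr3 lay at 8.85, 9.20 and 9.22 on the blastema arrays, against 8.07, 8.57, 8.44 and 8.61 on the uninjured arrays, and rose by 0.67 ± 0.15 (limma adjusted p = 0.0372). Ssr4 lay at 7.65, 7.86 and 7.79 on the blastema arrays, against 8.34, 8.33, 8.26 and 8.01 on the uninjured arrays, and fell by 0.47 on the log2 scale (SE 0.10, limma adjusted p = 0.0298). The groups of both genes were apart, but each call was lost in most omissions. Ssr3 passed only without blastema array 1 or uninjured array 1, with adjusted p of 0.06 to 0.144 otherwise, and Ssr4 only without uninjured array 4, with adjusted p of 0.0636 to 0.0996 otherwise. Ssr4 passed as lower under both reference gene scalings and Ssr3 under neither (adjusted p = 0.0686 and 0.0998). Since these scalings move every gene down, 12473 and 1846 of all genes passed as lower under them. Ssr1 (0.49 ± 0.15, adjusted p = 0.1), Ssr2 (0.18, adjusted p = 0.388) and the signal peptidase genes Spcs2 (-0.24, adjusted p = 0.279) and Spcs3 (0.02, adjusted p = 0.961) did not pass.

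No folding gene of the set passed the test. Of the 7 lumenal chaperone and cochaperone genes, the 2 lectin chaperone genes and the 3 measured disulfide isomerase genes, limma called 0. Of these 12 genes 8 had an unadjusted p under 0.05, against 24.9% of all genes. When blastema array 1 was omitted 4 of the 12 passed, where 1286 of all 22180 genes rose. All 12 log2 fold changes were above 0 (0.03 to 0.43, median 0.26). In 6 of the 12 all blastema arrays lay above all uninjured arrays, against 22 of the 46 genes and 10.4% of all genes. Under reference gene scaling 11 of the 12 were below 0, and under the median of the reference genes 5 were. These scalings subtract 1 amount from every gene, so relative to all genes the 12 are placed as before, and the sign depends on which genes are taken as level. Hspa5, the chaperone BiP and the classical readout of the UPR, lay at 9.44, 9.02 and 8.98 on the blastema arrays, against 9.41, 8.84, 8.83 and 9.01 on the uninjured arrays. Both arrays numbered 1 were high and the groups overlapped, with a difference of 0.12 (95% interval -0.29 to 0.53, adjusted p = 0.714). Hyou1, a BiP exchange factor, differed by 0.03 (-0.13 to 0.19), Hsp90b1 by 0.29 (0.03 to 0.55), Calr by 0.26 (0.03 to 0.49) and Canx by 0.22 (-0.05 to 0.49). The cochaperone genes Dnajc3 (0.39, adjusted p = 0.109), Dnajb9 (0.35, adjusted p = 0.126) and Dnajb11 (0.21, adjusted p = 0.0828), the secreted factor gene Manf (0.15, adjusted p = 0.214) and the isomerase gene Pdia3 (0.26, adjusted p = 0.141) did not pass either. The nearest to the threshold were the disulfide isomerase genes Pdia6 (0.43 ± 0.11, adjusted p = 0.0508) and P4hb (0.31 ± 0.09, adjusted p = 0.0688), whose protein is also the beta subunit of collagen prolyl hydroxylase. Pdia6 lay at 9.50, 9.81 and 9.80 on the blastema arrays, against 9.09, 9.38, 9.36 and 9.26 on the uninjured arrays, with no overlap.

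The ERSE was found for 6 of the 38 genes (15.8%, against 0.137% of all genes with a window), and all 6 serve folding. They are shown for contrast, since none of them passed the test. The capitals mark CCAAT and CCACG, or ATTGG and CGTGG where the match is on the other strand. The stretches lie at chr2:34772004-34772063 (plus strand) for Hspa5, chr10:86705524-86705667 (minus) for Hsp90b1, which holds 2 matches, chr8:84847055-84847114 (minus) for Calr, chr11:50325780-50325839 (minus) for Canx, chr14:118937806-118937865 (plus) for Dnajc3 and chr12:17266470-17266529 (plus) for Pdia6.
Hspa5: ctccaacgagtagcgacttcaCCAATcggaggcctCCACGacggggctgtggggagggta
Hsp90b1: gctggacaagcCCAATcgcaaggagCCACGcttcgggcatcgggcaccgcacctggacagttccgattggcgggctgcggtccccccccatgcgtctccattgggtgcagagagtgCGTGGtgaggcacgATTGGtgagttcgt
Calr: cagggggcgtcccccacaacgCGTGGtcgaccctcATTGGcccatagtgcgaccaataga
Canx: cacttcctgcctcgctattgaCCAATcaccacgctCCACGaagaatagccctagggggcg
Dnajc3: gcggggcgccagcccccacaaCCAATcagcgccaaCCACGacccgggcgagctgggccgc
Pdia6: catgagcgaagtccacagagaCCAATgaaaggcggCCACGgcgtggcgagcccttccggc

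The 4 genes with a UPRE had log2 fold changes of 0.34 (Copb1), 0.72 (Sec23a), 1.29 (Sec24d) and 2.14 (Kdelr3), of which 2 passed the test, and the 6 with an ERSE had 0.12 to 0.43, of which 0 passed. In all 4 UPRE genes and in 3 of the 6 ERSE genes the blastema arrays lay above the uninjured arrays. The same held in 22 of the 46 genes and in 10.4% of all genes. The ERSE-II was found for Dnajb11 and Herpud1 (5.26%, against 0.0444% of all genes), whose values were 0.21 and 0.07. The motif TTGCATCA, read by ATF4 with its partners, was found for Herpud1 alone (2.63%, against 1.03%). The other 26 genes with a window had a median of 0.16, with 4 rises and 2 falls. Across the whole array 147 measured genes had a UPRE, of which 19 rose and 6 fell (12.9% higher, median 0.02), and 29 had an ERSE, of which 1 rose and 0 fell (3.45% higher, median 0.02). Over all genes 4.98% rose and 4.66% fell, so the ERSE share is near the background. A match is a description of letters, and binding of a factor was not measured.

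**Figure D4:**
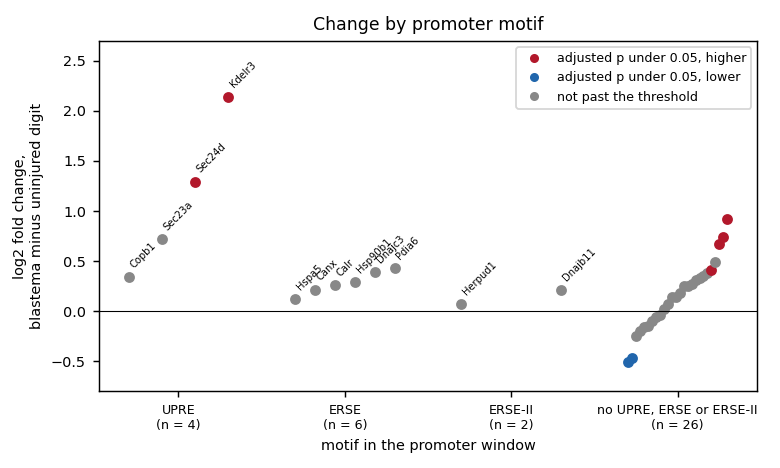
Log2 fold change, blastema minus uninjured digit (y axis), of the 38 genes with a promoter window, by the motif found in it (x axis). Red and blue points passed the test and grey points did not. The 4 UPRE genes span 0.34 to 2.14 and the 6 ERSE genes 0.12 to 0.43.

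The sensors and transcription factors of the 3 classical UPR arms did not pass the test either, with 0 of 6 called by limma and 1 of 6 (Eif2ak3) at an unadjusted p under 0.05, against 24.9% of all genes. Xbp1 lay at 8.87, 8.99 and 9.08 on the blastema arrays, against 8.85, 8.90, 8.87 and 9.003 on the uninjured arrays, a difference of 0.07 (95% interval -0.10 to 0.25, adjusted p = 0.586). Arrays of this kind read the whole Xbp1 message and do not show its splicing by IRE1, and phosphorylation or cleavage of the sensors is likewise outside the measurement. Atf4 lay at 9.46, 9.24 and 9.04 on the blastema arrays, against 9.84, 9.20, 9.28 and 9.28 on the uninjured arrays (difference -0.15, -0.56 to 0.25, adjusted p = 0.636), uninjured array 1 being the highest of all. Ddit3, which encodes the death-linked factor CHOP, lay at 6.13, 6.24 and 6.08 on the blastema arrays, against 6.42, 6.23, 6.22 and 6.32 on the uninjured arrays (-0.15, -0.33 to 0.03, adjusted p = 0.278). The Ddit3 levels were not far above the background proxy of 5.51. For all 3 factors the groups overlapped. Of the sensors, Eif2ak3 (PERK) lay at 6.77, 6.98 and 7.12 on the blastema arrays, against 6.44, 6.60, 6.51 and 6.74 on the uninjured arrays, apart but short of the threshold (0.38 ± 0.11, adjusted p = 0.0731, with 0.0398 to 0.225 over the omissions of 1 array). Atf6 lay at 8.92, 8.78 and 8.89 on the blastema arrays, against 9.10, 8.96, 8.93 and 8.93 on the uninjured arrays (-0.12, -0.28 to 0.05, adjusted p = 0.353). Ern1 (IRE1) lay at 7.83, 7.69 and 7.69 on the blastema arrays, against 7.81, 7.77, 7.55 and 7.71 on the uninjured arrays (0.03, -0.16 to 0.22, adjusted p = 0.872). The blastema arrays all lay just below the uninjured arrays for Atf6, and the groups overlapped for Ern1. Of the degradation genes, Sel1l differed by 0.25 (adjusted p = 0.0974), Herpud1 by 0.07 (adjusted p = 0.788) and Edem1 by -0.10 (adjusted p = 0.326). Relative to the reference genes, Xbp1 (-0.32, adjusted p = 0.0392), Ddit3 (-0.54, adjusted p = 0.0142), Atf6 (-0.51, adjusted p = 0.0184) and Edem1 (-0.50, adjusted p = 0.0139) passed as lower, and none of these 4 did relative to the median of those genes (adjusted p = 0.21 to 0.558). Under the first of these scalings 12473 of all 22180 genes passed as lower, so such a call does not set these 4 apart.

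Among 103 further genes of the pathway, listed by name, limma called 15 higher (14.6%) and 4 lower (3.88%), and the median was 0.10. Over all genes 4.98% rose and 4.66% fell, so the falls are near the background share. The lists that follow are small, and a single call in one of them is little above that share. Of 13 targeting genes 1 rose and 1 fell. Tram2, whose protein couples the translocon to calcium uptake during collagen synthesis, averaged 7.54 ± 0.37 in blastema and 6.17 ± 0.24 in uninjured digit (SD, n = 3 and 4) and rose by 1.37 ± 0.19 (SE, limma adjusted p = 0.00732), and Srp14, of the signal recognition particle, fell by 0.46 (adjusted p = 0.00481). Of 10 COPI genes 4 rose and 2 fell, led by Arf4, a small GTPase (1.02 ± 0.11, adjusted p = 0.00319), and Copz2, a coat subunit (0.91 ± 0.17, adjusted p = 0.0177). The 2 that fell were the coat subunit genes Copg2 (-0.40) and Cope (-0.42), named after their values were seen. Of 19 COPII and exit site genes 4 rose and 0 fell, among them the cargo receptor genes Lman1 (0.75 ± 0.15, adjusted p = 0.0223) and Surf4 (0.59 ± 0.11, adjusted p = 0.0195). Of 16 folding genes 3 rose and 0 fell, led by Uggt2, a folding sensor (0.95 ± 0.21, adjusted p = 0.0304), and Pdia5 (0.81 ± 0.18, adjusted p = 0.0335). Of 10 oligosaccharyltransferase genes 1 rose, the catalytic subunit Stt3a (0.63 ± 0.11, adjusted p = 0.014). Of 13 degradation genes 2 rose, Erlec1 (0.62 ± 0.12, adjusted p = 0.0227) and Ube2j1 (0.50 ± 0.09, adjusted p = 0.0191), and 1 fell, Derl1 (-0.32, adjusted p = 0.0255), named after its value was seen. Tram2, Srp14 and Arf4 passed in all 7 omissions of 1 array, and the other genes named here in 1 to 5 of them, with adjusted p of up to 0.124.

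Targets of the integrated stress response, which includes the PERK and ATF4 arm but is not limited to it, gave no call. Limma called 0 of the 12 measured, 4 had an unadjusted p under 0.05 (24.9% of all genes did), and the median was -0.10. Among 10 other genes of UPR processing and of the OASIS family limma likewise called 0, with 1 at an unadjusted p under 0.05. Ppp1r15a, which encodes a phosphatase subunit that ends the response, had the smallest p (-0.84 ± 0.25, adjusted p = 0.0878), at 8.28, 7.39 and 7.71 on the blastema arrays, against 9.14, 8.56, 8.33 and 8.51 on the uninjured arrays. Only blastema array 1 came near the uninjured arrays. The gene passed as lower under both reference gene scalings (adjusted p = 0.00748 and 0.00402), where 12473 and 1846 of all genes did. Over the omissions of 1 array the adjusted p of Ppp1r15a was 0.0403 to 0.255.

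Markers of several cell types also differed between the groups. Over all genes 4.98% rose and 4.66% fell, so a single call in a short list says little about its cell type. All 5 measured osteoblast markers rose, with mean levels of 8.53 to 9.02 on the blastema arrays and 5.32 to 6.23 on the uninjured arrays. Of 7 fibroblast markers 5 rose (11.09 to 11.57 on the blastema arrays, 8.49 to 9.61 on the uninjured arrays), among them the collagen gene Col1a1 by 3.48. Of 6 osteoclast markers 5 rose (7.37 to 8.03 in blastema, 5.83 to 6.00 in uninjured digit), and of 6 macrophage markers 4 rose (7.07 to 7.51 in blastema, 6.44 to 6.74 in uninjured digit). Of 5 endothelial markers 2 rose (7.16 to 7.97 in blastema, 6.32 to 7.06 in uninjured digit), as did 2 of 6 chondrocyte markers (6.98 to 7.03 in blastema, 5.80 to 6.39 in uninjured digit). Of 6 cornified epidermis markers 4 fell (10.53 to 10.82 in blastema, 11.40 to 11.59 in uninjured digit), of 3 basal epidermis markers 1 fell (8.77 to 9.24 in blastema, 9.26 to 10.03 in uninjured digit) and of 5 sweat gland markers 2 fell (5.91 to 5.98 in blastema, 6.22 to 6.58 in uninjured digit). Plasma cells, which also secrete much protein, had 1 of 8 markers higher, Fkbp11 (1.07, adjusted p = 0.0125, with 0.00952 to 0.0635 over the omissions of 1 array), an ER folding gene, with list means of 5.94 to 6.06 in blastema and 5.80 to 5.93 in uninjured digit. Their defining gene Jchain averaged 3.08 in blastema and 3.03 in uninjured digit, under the background proxy, and none of the 3 B cell, 3 Schwann cell or 4 adipocyte markers measured passed the test (limma, 0, 1 and 0 of them at an unadjusted p under 0.05). Of the 31 marker calls, 17 were kept in all 7 omissions of 1 array, among them 4 of 5 in osteoblast, 5 of 5 in fibroblast, 3 of 5 in osteoclast and 2 of 4 in cornified epidermis lists. Those of endothelium (0 of 2), basal epidermis (0 of 1), macrophage (1 of 4), chondrocyte (1 of 2) and sweat gland (1 of 2) rested more on single arrays, with adjusted p of up to 0.152. The part of these cell types in the rises and falls above was not tested.

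**Figure D5:**
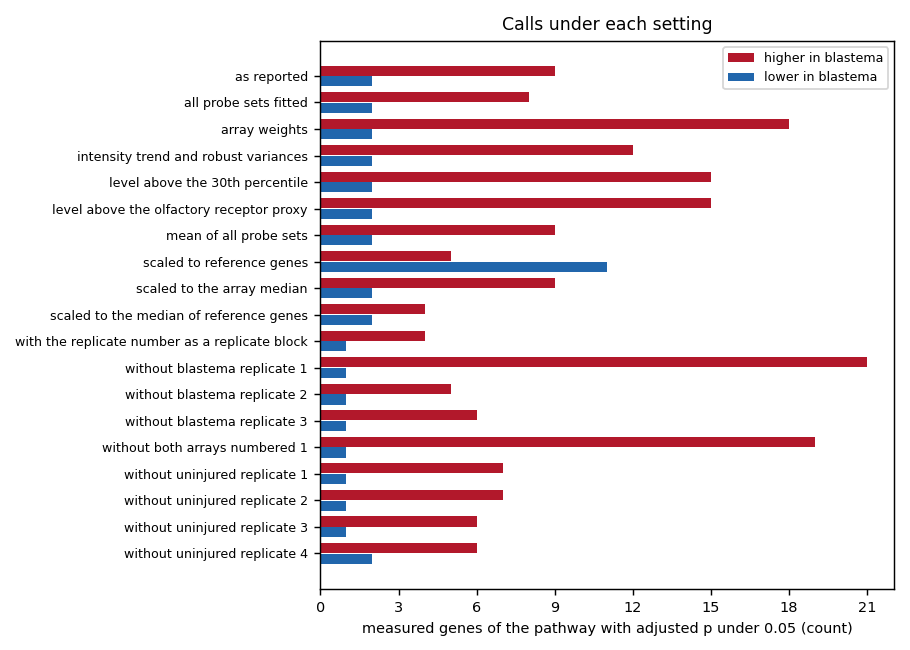
Number of the 46 genes that rose (red) and fell (blue) in blastema at an adjusted p of 0.05 (x axis) under each setting (y axis). Rises number 9 as reported and run from 4, with replicate blocks or with scaling to the median of the reference genes, to 21 without blastema replicate 1. Over all genes, which are not drawn, rises number 1105 as reported and 1286 without blastema replicate 1. Falls number 1 or 2 except with scaling to the mean of the reference genes, where they number 11.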

How the data were processed

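Levels were read on arrays in 3 blastema and 4 uninjured digit samples. The deposited values are log2 levels per probe set. The tools were oligo and RMA (background correction, quantile normalization and probe summary in 1 step), per the submitters' processing notes, and neither tool versions nor a genome build appear there or in the labels. The table holds 41345 probe sets, of which 23521 have 1 gene symbol in the platform annotation, 1814 several and 16010 none, giving 22180 genes.

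Blastema was set against uninjured digit with limma 3.58.1 (R 4.3.3; lmFit, eBayes) over all genes with no filter or covariate, and p-values were adjusted by Benjamini-Hochberg. The step was tested on simulated data. Paralog ratios were tested by exact permutation. The genes, lists and tests were chosen with earlier results of these data known. All members may be named. Of other lists, the 2 called genes with the largest absolute change are named. Array values are given by rule for the called genes, up to 3 a role, and for the UPR factors and Hspa5. Those of Sec23a, Pdia6 and Ppp1r15a were chosen after they were seen. Other settings were a replicate block, 2 level filters, the mean of probe sets, a variance trend, array weights, 3 scalings, all probe sets, and omission of arrays. Replicate numbers were not taken to pair samples. Promoters are from RefSeq. Figures used Python 3.11.15 and matplotlib 3.10.9.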

Additional observations from a re-analysis of the deposited data

Results flagged for a closer look

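Among the 46 genes, 5 had 1 uninjured array past Dixon's 95% limit for its gap to the nearest of the others over the range of the 4, where chance gives about 1 in 20 groups. These were Sec61a1 on uninjured array 3 (9.85, the lowest), Sec61g on uninjured array 2 (8.23, the highest), Sec62 on uninjured array 4 (9.16, the lowest), Copb1 on uninjured array 1 (9.42, the lowest) and Atf4 on uninjured array 1 (9.84, the highest). For Sec61g the other 3 uninjured arrays hold 1 identical value, 8.18, so that the tie alone put array 2 past the limit, and the gap is small. Sec61a1 and Sec62 passed the limma test without those arrays as well. Groups of 3 were not examined in this way.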

How the results depend on the processing

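The 11 calls kept their direction in every setting tried. Creb3l1, Kdelr3 and Sec62 also stayed past the threshold in each of them. Among the 46 genes the rises numbered 18 with array weights, 15 with a filter at the 30th percentile of levels, 15 with one at the olfactory receptor level and 19 without both arrays numbered 1, in place of 9. Over all genes the rises under these settings numbered 1570, 1304 of 15526 genes kept, 1404 of 13377 and 1164, in place of 1105. Omitting 1 array at a time gave 5 to 21 rises and 1 to 2 falls among the 46 genes, 457 to 1286 rises and 365 to 1009 falls over all genes, and a median of 0.18 to 0.31 over the 46. Scaling to the mean of the reference genes gave 5 rises and 11 falls among the 46, 511 rises and 12473 falls over all genes, and turned the median of the 46 to -0.16. It also turned Spcs3 to -0.38 (adjusted p = 0.0289), Hyou1 to -0.36 (adjusted p = 0.0491) and Xbp1 to -0.32 (adjusted p = 0.0392), and by its construction lowered every log2 fold change by the same amount. Scaling to their median, chosen after seeing the data, gave 4 rises and 2 falls among the 46, 504 rises and 1846 falls over all genes (21.4% of the calls upward), and a median of 0.0138. Scaling to the array median put 43.7% of the calls of all genes upward, and fitting all 41345 probe sets, which counts probe sets and not genes, gave 1137 rises and 1619 falls (41.3% upward). Over all settings, 51 further sign changes were in genes that passed neither way. The labels number the replicates alike in both groups but do not say that the numbers pair samples, so they were not taken as pairs. Same-numbered arrays deviated together with r = 0.286, 0.151 and -0.0651, and arrays of unlike number with r of -0.223 to 0.140. These values do not settle whether the numbers pair samples. With the replicate number as a block, 4 of the 46 genes rose and 1 fell, and 295 rose and 304 fell over all genes. Of the 11 calls 7 were lost with the block, at adjusted p of 0.0503 to 0.0965, and Sec23a was gained (adjusted p = 0.0388). The causes of these shifts were not tested, and the omissions also leave fewer samples.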

Other observations

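Of the 46 genes 4 have another, dimmer probe set. Its log2 difference was -0.01 for Ssr1, in place of 0.49, -0.12 for Sec61b (-0.04), -0.20 for Spcs2 (-0.24) and -0.24 for Edem1 (-0.10), with the value of the probe set used in brackets for the last 3. The mean levels of the dimmer Ssr1 probe set were 6.89 in blastema and 6.91 in uninjured digit.

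Of the 143 genes outside the set that had a UPRE in their promoter window, 17 rose and 6 fell (11.9% higher), and of 23 with an ERSE 1 rose and 0 fell (4.35% higher). Over all genes 4.98% rose and 4.66% fell. Of the other pathway genes with a window, 7 of 89 had a UPRE (7.87%) and 4 an ERSE (4.49%).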
